A study of Homo sapiens with 16 samples.

Results

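The STEAP metalloreductases and the core genes of cellular iron handling were followed through a study of FAH loss and CDK4/6 inhibition in breast cancer cells. The 10 genes were fixed by name: STEAP1, STEAP2, STEAP3, STEAP4, TFRC, FTH1, FTL, SLC40A1, SLC11A2 and IREB2. All 10 were found among the 78986 features of the table, and all 10 passed the filter on low values that left 16218 genes for testing. STEAP1 was chosen by its measured CPM in knockout and control libraries, so its knockout values are a description with no test. Its drug comparisons use the same libraries that chose it. The other 9 genes were named for their function, but with earlier results of these data known. Their tests and counts of calls are therefore not those of a blind choice.

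RNA was sequenced in bulk from T47D, a long-established line of human breast cancer that is luminal and positive for the estrogen receptor. The FAH gene encodes fumarylacetoacetate hydrolase, which completes the breakdown of tyrosine, and abemaciclib inhibits the cell cycle kinases CDK4 and CDK6. The 4 groups were FAH knockout cells under 500 nM abemaciclib, control-guide cells under 500 nM abemaciclib, FAH knockout cells under vehicle, and control-guide cells under vehicle, each with 4 libraries and sampled at day 3. The labels name neither the guides nor the clonality of the knockout cells, and T47D is the only line. No label says that the libraries within a group are separate cultures, so p-values measure the spread between libraries, which may be technical.

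Cells take up iron bound to transferrin through the transferrin receptor, reduce it in endosomes, and pass the ferrous ion to the cytosol through a divalent metal transporter. Iron that is not used is stored in ferritin, a shell of heavy and light chains, or leaves the cell through ferroportin. The STEAP proteins are membrane proteins that carry heme, and STEAP2, STEAP3 and STEAP4 use NADPH to reduce ferric iron and cupric copper, while STEAP1 lacks the NADPH-binding domain and is best known as a surface antigen of prostate tumours. When iron is scarce, the iron regulatory proteins, among them the product of IREB2, bind hairpins called iron-responsive elements, which blocks translation where the hairpin lies in a 5′ untranslated region and protects the mRNA from decay where hairpins lie in a 3′ untranslated region.

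The hairpins are shown because they divide the listed genes in which they were found by the end of the mRNA that holds them. GENCODE 29 transcripts (GRCh38) were searched on the sense strand for an unpaired C, a stem of 5 pairs with G-U allowed, and a loop of CAGTG followed by A, C or T. Of the 10 genes, 4 held the pattern, against 214 of 19669 protein-coding symbols (1.09%). FTH1 (chr11:61967574-61967602, minus strand), FTL (chr19:48965335-48965363, plus strand) and SLC40A1 (chr2:189580661-189580689, minus strand) held 1 match each, in the 5′ untranslated region. TFRC held 4 in its 3′ untranslated region, all on the minus strand of chromosome 3, at chr3:196050979-196051007, chr3:196050575-196050603, chr3:196050510-196050538 and chr3:196050463-196050491. No match in the other genes says only that these letters are not in their transcripts. An element with another stem or loop would be missed, in any of the 10 genes. Each sequence of 29 bases runs 5′ to 3′ along the mRNA in DNA letters, with the loop in capitals, and the matches of TFRC are numbered in that direction.
FTH1: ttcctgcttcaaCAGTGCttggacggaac
FTL: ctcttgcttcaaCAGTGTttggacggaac
SLC40A1: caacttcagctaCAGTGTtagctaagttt
TFRC match 1: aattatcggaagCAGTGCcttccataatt
TFRC match 2: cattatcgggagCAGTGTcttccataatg
TFRC match 3: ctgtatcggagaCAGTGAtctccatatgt
TFRC match 4: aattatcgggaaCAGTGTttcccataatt

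The stretch of 156 bases in front of the first STEAP1 exon is shown because STEAP1 and its neighbour STEAP2 were both higher in knockout cells (values below). It comes from the RefSeq promoter table (GRCh38.p14, chr7:90154219-90154374, plus strand), which held 9 of the 10 genes. The capitals mark a match to the NF-kappaB core (GGGA, any 4 bases, CC) at position -152 counted from the RefSeq start. That start lies beyond the end of the printed stretch. The RefSeq window of 250 bases runs on to chr7:90154468, and only its part before the GENCODE exon is printed. This pattern, read on both strands, was in 22.6% of 35116 promoters. It was among several patterns searched, and windows of STEAP2, SLC40A1 and IREB2 held it too. The interferon-response pattern (GAAA, any 2 bases, GAAA), which 3.02% of the promoters held, was not found in the windows of STEAP1 or STEAP2. A match is a description of the letters and not a binding site.
STEAP1: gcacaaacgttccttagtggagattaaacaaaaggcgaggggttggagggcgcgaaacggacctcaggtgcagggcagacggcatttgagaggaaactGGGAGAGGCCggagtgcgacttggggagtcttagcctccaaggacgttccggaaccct

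Values are counts per 1000000 assigned reads (CPM) from libraries of 9915776 to 11963093 reads, in which 1 read was worth 0.0836 to 0.101 CPM. Because CPM are not divided by gene length, levels are compared between groups for 1 gene and never between genes. FAH averaged 5.76 ± 0.744 CPM in knockout and 23.97 ± 1.35 CPM in control cells under abemaciclib, and 6.65 ± 0.323 CPM in knockout and 26.5 ± 1.57 CPM in control cells under vehicle (SD, n = 4 each), so the labels held but FAH mRNA remained. All 9 luminal markers were detected, with a summed 9410 to 16000 CPM per library. The 9 basal or mesenchymal markers summed to 60 to 88.1 CPM, with 5 of them passing the filter, and the 6 leukocyte or macrophage markers to 3.81 to 6.36 CPM, with 4 passing. In bulk libraries, fewer cells of a type and less RNA per cell cannot be told apart.

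**Figure D1:**
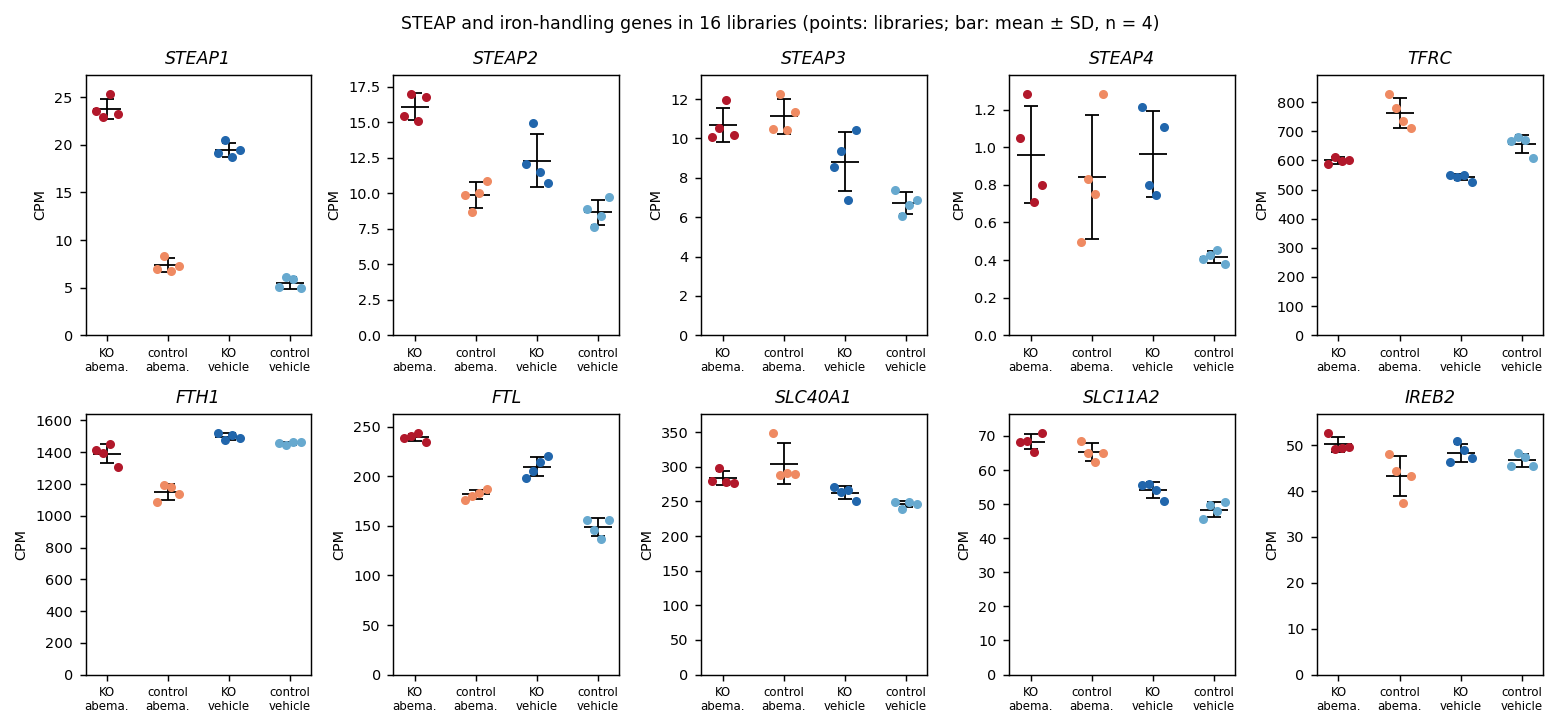
CPM of the 10 genes (vertical axes, each from 0 and with its own scale) in knockout cells under abemaciclib, control cells under abemaciclib, knockout cells under vehicle and control cells under vehicle, with 1 point per library and mean ± SD (n = 4). STEAP1 and FTL are higher in both knockout groups, TFRC is lower in both, and FTH1 is lowest in control cells under abemaciclib.

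Among the reductases, STEAP1 (ENSG00000164647, chr7:90154375-90164829, plus strand) was read at 23.6, 22.9, 25.4 and 23.2 CPM in knockout cells and at 7.01, 8.37, 6.71 and 7.32 CPM in control cells under abemaciclib. Under vehicle it was at 19.2, 20.5, 18.8 and 19.5 CPM in knockout cells and at 5.04, 6.15, 5.95 and 4.95 CPM in control cells. No 2 of the 4 groups overlapped, and their order was knockout under abemaciclib, knockout under vehicle, control under abemaciclib and control under vehicle. The mean CPM in knockout cells was 3.23 times that in control cells under abemaciclib and 3.53 times under vehicle.

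On the log2(CPM + 1) scale, on which all fold changes here are given and which understates the change of low genes, the STEAP1 difference was 1.57 (95% interval 1.41 to 1.73) under abemaciclib and 1.65 (1.49 to 1.82) under vehicle. These values chose the gene and carry no test. The difference between them, -0.08 (-0.31 to 0.15), was likewise not tested. With abemaciclib STEAP1 was higher than with vehicle by a log2 fold change of 0.28 in knockout cells (SE 0.08, limma adjusted p = 0.00628) and of 0.36 in control cells (SE 0.08, limma adjusted p = 0.000327). Both drug comparisons use the libraries that chose the gene. The summed CPM of the luminal markers took the same order of groups, at 15700 to 16000 and 11200 to 11700 CPM in knockout and control cells under abemaciclib and 13100 to 13500 and 9410 to 9580 CPM in knockout and control cells under vehicle, and their part in the STEAP1 values was not tested. That order comes from part of the list: with the knockout 4 of the 9 markers were called higher and 4 lower under abemaciclib, and 5 higher and 4 lower under vehicle. The keratins KRT8 and KRT18 were higher, by 0.91 and 0.95 under abemaciclib and 0.90 and 0.85 under vehicle on the log2 scale, while ESR1, PGR, GATA3 and FOXA1, which encode the hormone receptors and luminal transcription factors, were lower. STEAP1B (chr7:22419444-22727613), a near copy of the gene, reached at most 0.209 CPM. Adding its reads left the knockout differences at 1.57 and 1.66. STEAP1 was a whole number of reads in 9 of 16 libraries, and genes whole in at most 8 are marked as uncertain. The source of its fractional values was not tested.

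STEAP2 (ENSG00000157214, chr7:90167590-90238137, plus strand), a ferric and cupric reductase, was also higher in knockout cells. It was read at 15.5, 17.0, 15.1 and 16.8 CPM in knockout and at 9.90, 8.67, 10.0 and 10.9 CPM in control cells under abemaciclib, a log2 fold change of 0.66 (SE 0.09, limma adjusted p = 7.17e-07). The vehicle groups held it at 12.04, 14.96, 11.5 and 10.7 CPM in knockout and 8.87, 7.64, 8.37 and 9.71 CPM in control cells, a log2 fold change of 0.46 (SE 0.09, limma adjusted p = 0.000136). Knockout and control libraries did not overlap under either treatment. The drug comparison in knockout cells gave 0.37 (limma adjusted p = 0.00131), without overlap. In control cells it gave 0.17 (limma adjusted p = 0.113), and the libraries overlapped. That comparison passed with both other scalings, by the median of ratios (0.24, limma adjusted p = 0.0279) and by quantiles (0.26, 0.0198), and without replicate 2 of control cells under abemaciclib (0.23, 0.0497). The interaction was 0.20 (limma adjusted p = 0.380).

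STEAP3 (ENSG00000115107, chr2:119223831-119265652, plus strand), the endosomal ferrireductase of the transferrin cycle in red cell precursors, moved with the drug and with the knockout under vehicle. Its level was 10.1, 10.5, 11.98 and 10.2 CPM in knockout and 10.5, 12.3, 10.4 and 11.4 CPM in control cells under abemaciclib. In the libraries under vehicle it lay at 8.53, 9.38, 6.90 and 10.4 CPM in knockout and at 7.36, 6.05, 6.60 and 6.88 CPM in control cells. Abemaciclib libraries of control cells all lay above the vehicle libraries, while the other called STEAP3 comparisons overlapped.

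STEAP3 rose with abemaciclib in control cells by a log2 fold change of 0.65 (SE 0.10, limma adjusted p = 8.41e-07). In knockout cells the increase was 0.26 (limma adjusted p = 0.0308), a call lost without replicate 1 or 3 under vehicle or replicate 2 or 3 under abemaciclib (limma adjusted p up to 0.195). It was also lost without the filter on low values (limma adjusted p = 0.1). Knockout against control gave 0.33 under vehicle (limma adjusted p = 0.00633) and -0.05 under abemaciclib (limma adjusted p = 0.727). The interaction, -0.39, missed the threshold (limma adjusted p = 0.0641), and it passed without replicate 3 of knockout cells under vehicle (-0.49, limma adjusted p = 0.0132) or under abemaciclib (-0.44, limma adjusted p = 0.0455).

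STEAP4 (ENSG00000127954, chr7:88270892-88306891, minus strand), a plasma membrane reductase induced by inflammation in other tissues, stood on 4.0 to 14.5 reads per library. The libraries held it at 1.05, 1.28, 0.708 and 0.802 CPM in knockout and at 0.498, 0.832, 0.750 and 1.28 CPM in control cells under abemaciclib. Under vehicle it was at 1.21, 0.798, 0.746 and 1.11 CPM in knockout and at 0.403, 0.429, 0.454 and 0.377 CPM in control cells. The control libraries under vehicle lay below all 12 others.

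Against them STEAP4 was higher in knockout cells under vehicle (log2 fold change 0.47, SE 0.14, limma adjusted p = 0.00892) and in control cells under abemaciclib (0.36, limma adjusted p = 0.0320). No control library under vehicle reached 1 CPM, so STEAP4 passed the filter on low values only through the other groups, where it was higher. These comparisons are therefore to be read as a description. The first call was lost after quantile normalization (limma adjusted p = 0.0554), and the second without replicate 1 or 4 of control cells under vehicle or replicate 2 or 4 under abemaciclib (limma adjusted p up to 0.161). The second was also lost without the filter on low values (limma adjusted p = 0.109). Knockout against control under abemaciclib gave 0.10 (limma adjusted p = 0.654), the drug comparison in knockout cells gave -0.01 (limma adjusted p = 0.981), and the interaction gave -0.37 (limma adjusted p = 0.272). Its value was a whole number of reads in 4 of 16 libraries only, so it is marked as uncertain. The source of the fractional values was not tested.

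**Figure D2:**
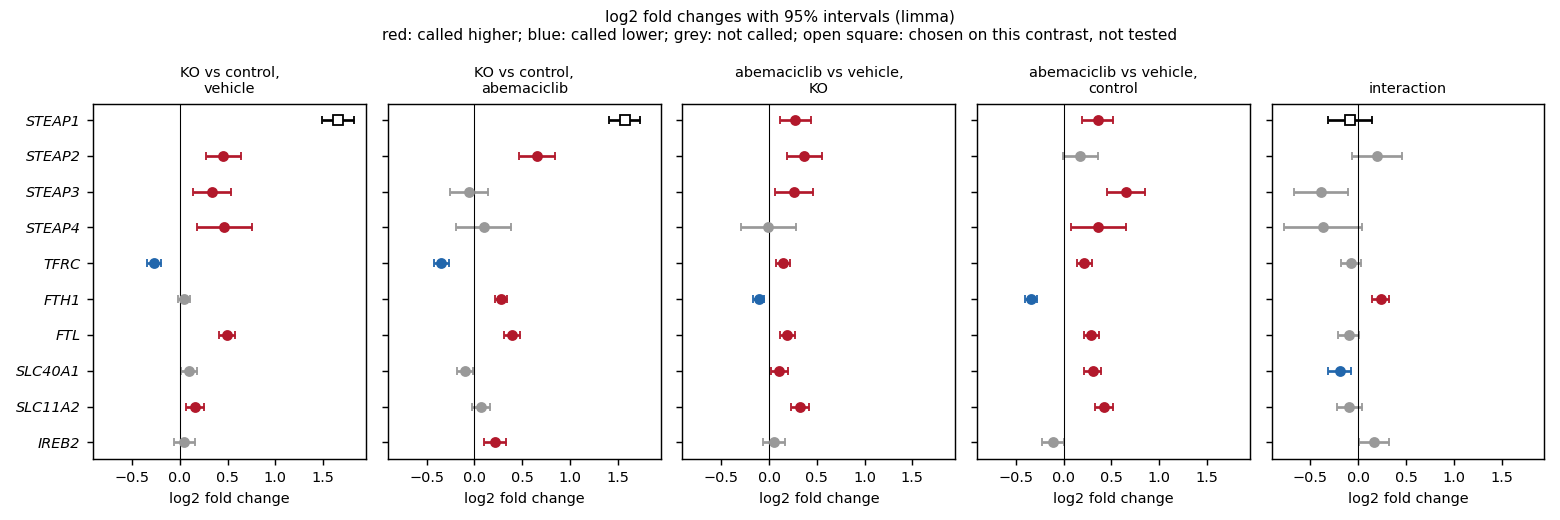
Log2 fold changes (horizontal axes, on the log2(CPM + 1) scale) with 95% intervals from limma, for knockout against control under vehicle and under abemaciclib, abemaciclib against vehicle in knockout and in control cells, and the interaction. STEAP1 under the knockout, drawn as open squares without a test, lies near 1.6 and every other value is below 0.7.

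TFRC (ENSG00000072274, chr3:196027183-196082189, minus strand) encodes the transferrin receptor that brings iron into the cell, and it was the listed gene that fell with the knockout. It was read at 586, 613, 598 and 603 CPM in knockout and at 828.5, 779.6, 735 and 711 CPM in control cells under abemaciclib. The vehicle groups held it at 549, 544, 549 and 527 CPM in knockout and at 666, 679.7, 670.2 and 609 CPM in control cells. Every knockout library lay below every control library of its treatment, and every abemaciclib library above every vehicle library of its genotype.

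The log2 fold change of TFRC with the knockout was -0.35 under abemaciclib (SE 0.04, limma adjusted p = 3.9e-09) and -0.27 under vehicle (SE 0.04, limma adjusted p = 2.89e-07). It was higher with abemaciclib by 0.14 in knockout cells (limma adjusted p = 0.0018) and by 0.22 in control cells (limma adjusted p = 6.5e-06). The interaction was -0.07 (limma adjusted p = 0.439). The 4 groups ran, from high to low, control under abemaciclib, control under vehicle, knockout under abemaciclib and knockout under vehicle. Of these neighbours, knockout cells under abemaciclib reached 613 CPM, and control cells under vehicle went down to 609 CPM, so that pair overlapped.

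SLC11A2 (ENSG00000110911, chr12:50979401-51028566, minus strand), the divalent metal transporter that passes ferrous iron out of endosomes, was higher with the drug. Its level was 68.3, 68.6, 65.4 and 70.8 CPM in knockout and 68.5, 65.1, 62.2 and 65.1 CPM in control cells under abemaciclib. In the libraries under vehicle it lay at 55.7, 56.0, 54.2 and 50.9 CPM in knockout and at 45.5, 49.6, 48.0 and 50.5 CPM in control cells. All abemaciclib libraries lay above all vehicle libraries.

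The drug increase of SLC11A2 was 0.33 in knockout cells (SE 0.05, limma adjusted p = 5.01e-07) and 0.42 in control cells (SE 0.05, limma adjusted p = 1.64e-09). Knockout against control gave 0.16 under vehicle, without overlap (limma adjusted p = 0.00595), and this call was lost after rescaling of the libraries (0.10, limma adjusted p = 0.0959) and after quantile normalization (0.10, limma adjusted p = 0.0989). Under abemaciclib the knockout difference was 0.07 (limma adjusted p = 0.310), and the interaction was -0.09 (limma adjusted p = 0.415).

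The ferritin chains differed in their drug change. FTL (ENSG00000087086, chr19:48965301-48966878, plus strand), the light chain that helps iron mineralise inside the shell, was read at 239, 240.6, 244 and 234 CPM in knockout and at 176, 180.7, 184 and 187 CPM in control cells under abemaciclib. Under vehicle it was at 198, 206, 214 and 221 CPM in knockout and at 156, 146, 137 and 156 CPM in control cells. The 4 groups did not overlap, in the order knockout under abemaciclib, knockout under vehicle, control under abemaciclib and control under vehicle, the order that STEAP1 also took.

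FTL was higher in knockout cells by 0.39 under abemaciclib (SE 0.04, limma adjusted p = 9.56e-10) and by 0.49 under vehicle (SE 0.04, limma adjusted p = 3.76e-12). It was higher with abemaciclib by 0.19 in knockout cells (limma adjusted p = 0.000189) and by 0.29 in control cells (limma adjusted p = 1.42e-07). The interaction was -0.10 (limma adjusted p = 0.287) and passed after quantile normalization only (-0.18, limma adjusted p = 0.0400).

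FTH1 (ENSG00000167996, chr11:61959718-61967660, minus strand), the heavy chain with the ferroxidase centre, fell with abemaciclib. The libraries held it at 1411, 1393, 1449 and 1307 CPM in knockout and at 1085, 1195, 1182 and 1135 CPM in control cells under abemaciclib. The vehicle groups held it at 1520.3, 1475, 1509 and 1489 CPM in knockout and at 1457, 1443, 1463 and 1465 CPM in control cells. The control libraries under abemaciclib were the lowest of all, and the libraries did not overlap in any of the 4 comparisons. Knockout cells under abemaciclib and control cells under vehicle, which are not compared, did overlap.

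The log2 fold change of FTH1 with abemaciclib was -0.34 in control cells (SE 0.03, limma adjusted p = 1.47e-11) and -0.11 in cells with the knockout (limma adjusted p = 0.00428). The second call was lost after rescaling (-0.02, limma adjusted p = 0.726) and without a trend in the variance (limma adjusted p = 0.0573). The difference between the drug changes was 0.23 (SE 0.04, limma adjusted p = 0.000258), so the change in knockout cells was the smaller. The knockout difference of FTH1 was 0.27 under abemaciclib (SE 0.03, limma adjusted p = 9.1e-09). Under vehicle it was 0.04 (limma adjusted p = 0.308), which turned to -0.02 after rescaling and passed the threshold at 0.15 after quantile normalization (limma adjusted p = 0.000175).

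The ratio of the chains within a library does not depend on the scaling to total reads. The log2 ratio of FTL to FTH1 CPM averaged -2.54 ± 0.0419 in knockout and -2.66 ± 0.0573 in control cells under abemaciclib, and -2.84 ± 0.0767 in knockout and -3.29 ± 0.0913 in control cells under vehicle (SD, n = 4 each). As CPM are not per length, only its differences between groups are read. The ratio was higher in knockout cells by 0.12 under abemaciclib and by 0.46 under vehicle, and higher with abemaciclib by 0.30 in knockout and by 0.63 in control cells. The libraries did not overlap in any of these comparisons. This ratio was chosen after the values of both chains had been seen, so it carries no test.

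Both ferritin genes have many processed pseudogenes. The 27 FTH1 pseudogene symbols, 19 of them detected, summed to 1.78 to 2.22% of FTH1, and the 18 of FTL, 6 of them detected, to 0.891 to 1.99% of FTL. FTH1 was a whole number of reads in 0 of 16 libraries and FTL in 6, so both are marked as uncertain, and whether the fractions come from these copies was not tested. Adding the pseudogene reads to their parents gave knockout differences of 0.27 for FTH1 and 0.39 for FTL under abemaciclib and 0.04 and 0.49 under vehicle, with the same calls.

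**Figure D3:**
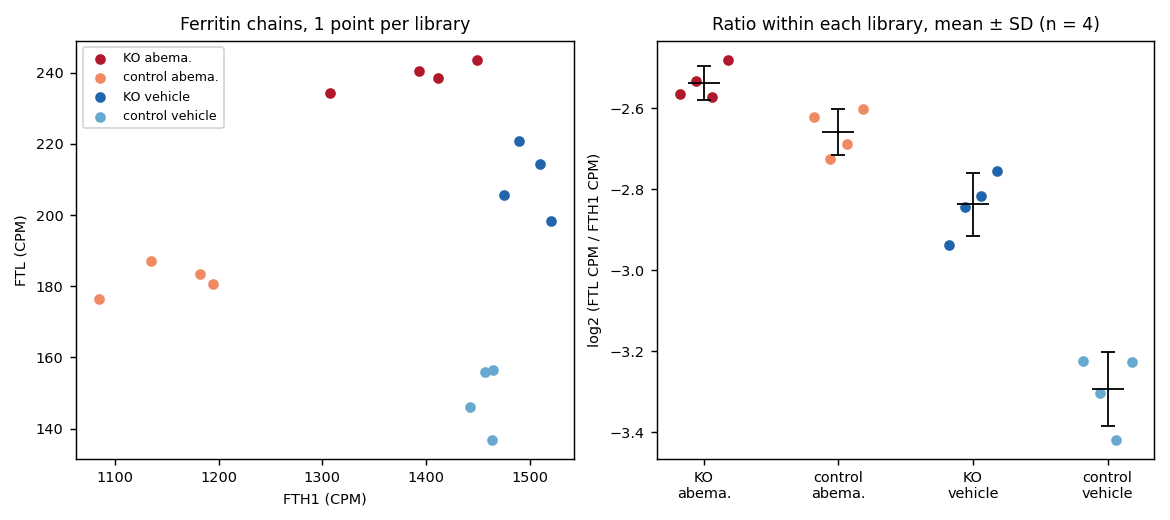
Left, FTL CPM (vertical axis) against FTH1 CPM (horizontal axis), with 1 point per library and axes that do not start at 0. Right, the log2 ratio of FTL to FTH1 CPM per library with mean ± SD (n = 4), which runs down from -2.54 in knockout cells under abemaciclib to -3.29 in control cells under vehicle.

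SLC40A1 (ENSG00000138449, chr2:189560579-189583758, minus strand) encodes ferroportin, the iron exporter. It was read at 279.8, 299, 278 and 277 CPM in knockout and at 349, 288, 292 and 289.6 CPM in control cells under abemaciclib. In the libraries under vehicle it lay at 271, 264, 266 and 249.97 CPM in knockout and at 248, 239, 248 and 246 CPM in control cells. Within each genotype the abemaciclib libraries lay above the vehicle libraries, and replicate 1 of control cells under abemaciclib stood apart from the rest of its group.

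The drug increase of SLC40A1 was 0.30 in control cells (SE 0.04, limma adjusted p = 3.36e-07) and stayed called without any 1 library. In knockout cells it was 0.11 (limma adjusted p = 0.0435), and this call was lost without any 1 of replicates 2, 3 and 4 under vehicle or 1, 2 and 3 under abemaciclib (limma adjusted p up to 0.166). It was also lost without the filter on low values (limma adjusted p = 0.209) and without a trend in the variance (0.157). Knockout against control gave -0.10 under abemaciclib, with overlap (limma adjusted p = 0.0825), and 0.10 under vehicle, without overlap (limma adjusted p = 0.0776). The first passed, as a decrease, on the rescaled values (-0.14, limma adjusted p = 0.00594), on quantile-normalized ones (-0.14, 0.0137) and without replicate 2 or 4 of control or 2 of knockout cells under abemaciclib (limma adjusted p from 0.0418 to 0.0446). The second passed, as higher, after quantile normalization (0.11, limma adjusted p = 0.0468), without replicate 1 of control cells under abemaciclib (0.10, 0.0127) and without replicate 4 of knockout cells under vehicle (0.12, 0.0439). The interaction was -0.19 (SE 0.06, limma adjusted p = 0.0337). Without replicate 1 of control cells under abemaciclib it was -0.13 (limma adjusted p = 0.0687), and it also missed the threshold without replicate 2 of control cells under vehicle, without replicate 1, 2 or 3 of knockout cells under vehicle, and without replicate 1, 3 or 4 of knockout cells under abemaciclib (limma adjusted p up to 0.0703). The interaction was further lost without the filter on low values (limma adjusted p = 0.213) and without a trend in the variance (0.167).

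IREB2 (ENSG00000136381, chr15:78437431-78501456, plus strand) encodes iron regulatory protein 2, which binds the hairpins printed above and is itself controlled mainly by protein degradation. Its level was 52.6, 49.1, 49.3 and 49.6 CPM in knockout and 48.0, 44.4, 37.3 and 43.3 CPM in control cells under abemaciclib. Under vehicle it was at 46.4, 50.8, 48.9 and 47.2 CPM in knockout and at 45.5, 48.2, 47.5 and 45.5 CPM in control cells. The groups separated under abemaciclib and overlapped under vehicle.

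The knockout difference of IREB2 was 0.21 under abemaciclib (SE 0.05, limma adjusted p = 0.00312). Under vehicle it was 0.05 (limma adjusted p = 0.521), with a sign that turned after rescaling and after quantile normalization. The drug comparison gave 0.05 in knockout cells (limma adjusted p = 0.482), which passed on the rescaled values (0.14, limma adjusted p = 0.0310) and on quantile-normalized ones (0.14, 0.0326). In control cells it gave -0.11 (limma adjusted p = 0.0909), which passed as lower without replicate 1 under abemaciclib (-0.16, limma adjusted p = 0.0116). The interaction was 0.17 (limma adjusted p = 0.193). IREB2 was a whole number of reads in 7 of 16 libraries and is uncertain for that reason.

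By comparison, and leaving STEAP1 out of the knockout contrasts, 4 of 9 genes were called higher and 1 lower in knockout cells under abemaciclib, where 29.9% of all tested genes were called (18.6% higher and 11.3% lower). Under vehicle 5 of 9 were called higher and 1 lower, with 37.7% of all tested genes called (24.6% higher and 13.1% lower). The vehicle calls include STEAP4, with the limit of the filter given above. FTL and STEAP2 were higher and TFRC was lower under both treatments. The median log2 fold change was 0.10 for the 9 genes and 0.04 for all genes under abemaciclib, and 0.16 and 0.06 under vehicle.

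With abemaciclib, 7 of the 10 genes were called higher and 1 lower in knockout cells, where 38.4% of all tested genes were called (11% higher and 27.4% lower). In control cells 7 of 10 were called higher and 1 lower, with 50.7% of all tested genes called (19.6% higher and 31.1% lower). The higher genes in both were STEAP1, STEAP3, TFRC, FTL, SLC40A1 and SLC11A2, joined by STEAP2 in knockout and STEAP4 in control cells, and the lower gene in both was FTH1. The STEAP4 call carries the limit of the filter given above. The STEAP1 calls use the same libraries that chose the gene. The median was 0.17 for the 10 genes and -0.07 for all genes in knockout cells, and 0.30 and -0.05 in control cells. For the interaction, FTH1 was called higher and SLC40A1 lower among 9 genes, where 10.8% of all tested genes were called (4.68% higher and 6.16% lower). The knockout and drug comparisons share libraries, so their values are set side by side and not counted as independent.

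The split of calls over all genes depended on the scaling. Of all genes called, 62.2% were higher in knockout cells under abemaciclib as deposited, 46.9% after rescaling of the libraries by the median of ratios and 50.2% after quantile normalization. Under vehicle the shares were 65.3, 48.6 and 50.4%. For abemaciclib they were 28.6, 52.4 and 56.9% in knockout cells and 38.7, 50.9 and 53.2% in control cells. In knockout cells quantile normalization moved the median drug change of all genes by 0.10, and relative to that median as deposited the drug changes were 0.44 for STEAP2, 0.40 for SLC11A2, 0.34 for STEAP1, 0.33 for STEAP3, 0.26 for FTL, 0.21 for TFRC, 0.18 for SLC40A1, 0.12 for IREB2, 0.06 for STEAP4 and -0.04 for FTH1. The directions of STEAP1, STEAP2, TFRC and FTL in the 4 group comparisons were the same under both scalings.

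By the GENCODE gene bounds, STEAP2 begins 2.76 kb downstream of the end of STEAP1 on the same strand, and STEAP4 starts 1847 kb from STEAP1. The RefSeq windows of STEAP2 searched above lie further along, from chr7:90211490 and chr7:90213570. Within 2000 kb of the STEAP1 start, 11 other genes of 45 annotated were tested. In knockout cells under abemaciclib 3 of the 11 were called, near the share of all tested genes (29.9%, with 18.6% higher and 11.3% lower). All 3 were higher: STEAP2 (0.66), MTERF1, a mitochondrial transcription termination factor (0.39, limma adjusted p = 0.0319), and SRI, the calcium-binding protein sorcin (0.14, limma adjusted p = 0.00106). Under vehicle 3 were called, below the share of all tested genes (37.7%, with 24.6% higher and 13.1% lower). All 3 were higher: STEAP4 (0.47), STEAP2 (0.46) and AKAP9, a scaffold of the Golgi and centrosome (0.31, limma adjusted p = 0.000348). STEAP2 was the gene called under both, and the STEAP4 call carries the limit of the filter given above. The genes next along the chromosome, CFAP69 and GTPBP10, gave -0.21 and 0.11 under abemaciclib (limma adjusted p = 0.423 and 0.374) and 0.10 and 0.09 under vehicle (0.710 and 0.495). This window was chosen after the STEAP values had been seen.

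**Figure D4:**
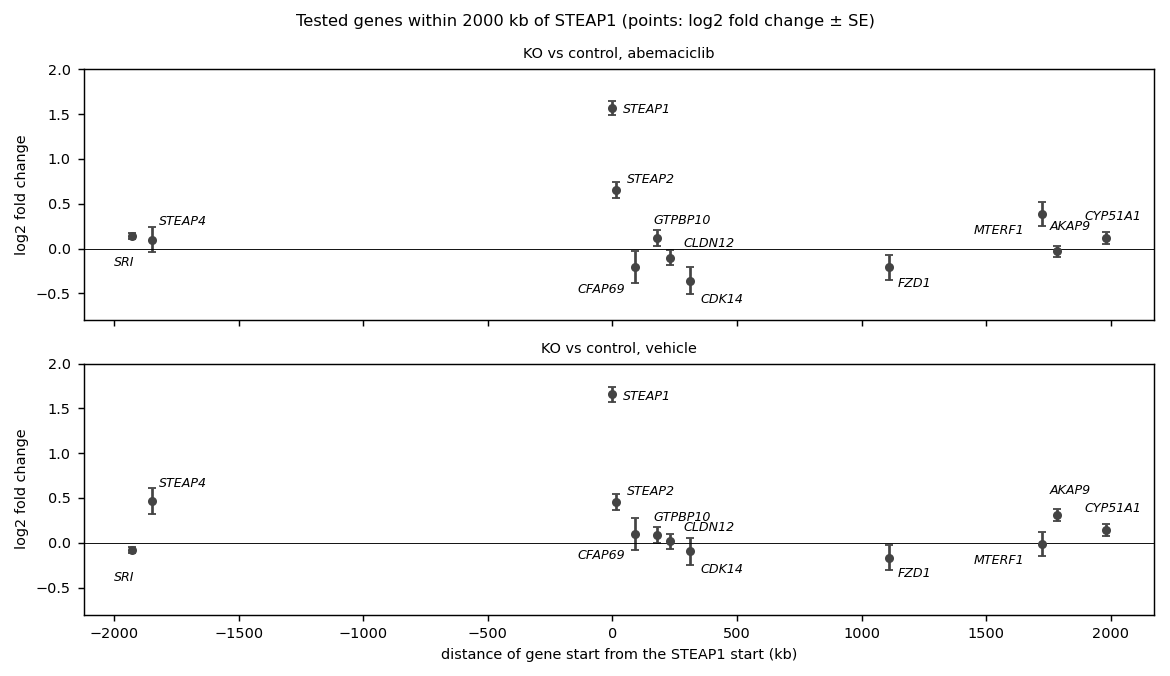
Log2 fold change ± SE of knockout against control (vertical axes) under abemaciclib, above, and under vehicle, below, for the 12 tested genes within 2000 kb of the STEAP1 start, by distance of their starts from it in kb. STEAP1 is at 1.57 and 1.65 and STEAP2 at 0.66 and 0.46, and the other genes lie below 0.5.

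The genes most like STEAP1 were found by the root mean square difference between centred group means of log2(CPM + 1) over the 4 groups, among 10639 protein-coding genes of at least 5 CPM in their highest group. They were TFAP2B, a transcription factor (0.0338), OAS1, an antiviral enzyme induced by interferon (0.129), ICAM1, an adhesion molecule (0.143), and IFIT3 (0.159) and RSAD2 (0.166), further interferon-induced genes. TFAP2B averaged 6.06 CPM in knockout and 1.5 CPM in control cells under abemaciclib, and 5.2 CPM in knockout and 0.915 CPM in control cells under vehicle. RSAD2 was as low in control cells, at 1.79 CPM under abemaciclib and 0.704 CPM under vehicle. At such levels the log2(CPM + 1) scale understates changes, so a small difference here is not an equal ratio of CPM. OAS1 averaged 42.6 CPM in knockout and 16.8 CPM in control cells under abemaciclib, and 39.6 CPM in knockout and 10.1 CPM in control cells under vehicle. ICAM1 averaged 12.8 CPM in knockout and 4.63 CPM in control cells under abemaciclib, and 9.51 CPM in knockout and 2.77 CPM in control cells under vehicle. With 4 group means this likeness is a description, and 3 of the 5 names were kept with a pseudocount of 0.1.

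Those most like TFRC were PRAME (0.021), GPR137B (0.0212), HERPUD1 (0.0217), ALDOC (0.032) and BCAS4 (0.0333). HERPUD1, which acts in the disposal of misfolded proteins at the endoplasmic reticulum, averaged 40.2 CPM in knockout and 53.7 CPM in control cells under abemaciclib, and 36.8 CPM in knockout and 45.1 CPM in control cells under vehicle. None of these 5 names was kept after quantile normalization and 2 to 4 without 1 library, so they depend on the processing.

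Beyond the 10 genes, 58 of 75 genes of iron uptake and transport, storage and regulation, heme and iron-sulfur clusters passed the filter. In knockout cells 12 of 58 were called higher and 2 lower under abemaciclib, and 10 higher and 12 lower under vehicle. That is 24.1 and 37.9% called, below and near the 29.9 and 37.7% of all tested genes. With abemaciclib 5 were called higher and 24 lower in knockout cells, and 6 higher and 29 lower in control cells, or 50 and 60.3%, against 38.4 and 50.7% of all tested genes. Their median drug change was -0.12 in knockout and -0.14 in control cells, against the medians of all genes of -0.07 and -0.05. For the interaction 7 were called (12.1%), each higher, where 4.68% of all tested genes were called higher and 6.16% lower. In the separate lists below, the shares called with the knockout under abemaciclib and vehicle, and with abemaciclib in knockout and control cells, are to be read against the same 29.9, 37.7, 38.4 and 50.7%. By direction, 18.6, 24.6, 11 and 19.6% of all tested genes were called higher in these comparisons, and 11.3, 13.1, 27.4 and 31.1% lower.

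In uptake and transport, 10 of 19 genes were tested. The knockout comparison called 1, lower, under abemaciclib and 2 higher and 3 lower under vehicle. The drug comparison called 2 higher and 5 lower in knockout and 2 higher and 6 lower in control cells, so that the shares called were 10, 50, 70 and 80%. CYBRD1, a ferric reductase of the plasma membrane, was lower in all of them, by -0.30 and -0.26 with the knockout under abemaciclib and vehicle and by -0.36 and -0.32 with abemaciclib in knockout and control cells (limma adjusted p from 0.000204 to 0.00625). MELTF, the transferrin homolog melanotransferrin, was lower with abemaciclib by -0.86 in knockout cells (limma adjusted p = 2.98e-10) and by -0.78 in control cells (limma adjusted p = 1.49e-09). MCOLN1, a cation channel of lysosomes that conducts iron, was higher with abemaciclib by 0.24 in knockout and 0.43 in control cells, and by 0.30 with the knockout under vehicle (limma adjusted p from 2.36e-06 to 0.00534). The mitochondrial iron importer SLC25A37 was lower with abemaciclib by -0.32 in knockout and -0.20 in control cells (limma adjusted p = 8.54e-05 and 0.00752). HFE, which binds the transferrin receptor, was higher with abemaciclib by 0.29 in knockout and 0.28 in control cells (limma adjusted p = 0.000197 and 0.00018), and was a whole number of reads in 5 of 16 libraries, so it is uncertain.

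In storage and regulation, 6 of 12 genes were tested, with 1 called higher and 1 lower with the knockout under abemaciclib and 2 higher and 2 lower under vehicle. With abemaciclib 1 was called higher and 2 lower in knockout cells and 2 higher and 2 lower in control cells. The shares called, 33.3, 66.7, 50 and 66.7%, come from 6 genes. NCOA4, the receptor that carries ferritin to autophagosomes for iron release, was higher in all of them, by 0.19 and 0.23 with the knockout under abemaciclib and vehicle and by 0.20 and 0.24 with abemaciclib in knockout and control cells (limma adjusted p from 2.77e-05 to 0.000959). PCBP1, a chaperone that loads iron into ferritin, was lower with abemaciclib by -0.18 in knockout and -0.36 in control cells (limma adjusted p = 1.57e-05 and 1.54e-11). The difference between them was 0.17 (limma adjusted p = 0.0087), a call lost after quantile normalization (limma adjusted p = 0.647). It was also lost without the filter on low values (limma adjusted p = 0.0532) and without a trend in the variance (0.094). ACO1, the other iron regulatory protein, averaged 19.2 CPM in knockout and 17.9 CPM in control cells under abemaciclib and 19.4 CPM in knockout and 18.7 CPM in control cells under vehicle, and limma called it in none of the 5 comparisons (smallest adjusted p 0.357).

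Among heme genes, 16 of 18 were tested. The knockout comparison called 4, each higher, under abemaciclib and 2 higher and 2 lower under vehicle, and the drug comparison called 2 higher and 5 lower in knockout and 1 higher and 6 lower in control cells. The shares called were 25, 25, 43.8 and 43.8%. BLVRA, which reduces biliverdin after heme is opened, was higher with the knockout by 0.21 under abemaciclib and 0.30 under vehicle (limma adjusted p = 5.91e-05 and 7.38e-08). BLVRB, a flavin and biliverdin reductase, was lower with abemaciclib by -0.41 in knockout and -0.61 in control cells (limma adjusted p = 1.49e-11 and 3.22e-16). PGRMC1, a heme-binding membrane protein, was lower with abemaciclib by -0.32 in knockout and -0.43 in control cells (limma adjusted p = 1.12e-05 and 3.71e-08). HMOX1, the inducible heme oxygenase that releases iron, averaged 5.59 CPM in knockout and 5.69 CPM in control cells under abemaciclib, and 7.01 CPM in knockout and 6.91 CPM in control cells under vehicle, and the one call was its drug change in knockout cells (-0.29, limma adjusted p = 0.0334).

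Of the iron-sulfur cluster genes all 26 were tested. Under abemaciclib 7 were called with the knockout, each higher, and under vehicle 4 higher and 5 lower. With abemaciclib 12 were called in knockout cells, each lower, and 1 higher and 15 lower in control cells. The shares called were 26.9, 34.6, 46.2 and 61.5%, near those of all genes with the knockout and above them with the drug. FDXR, the ferredoxin reductase that feeds electrons to cluster assembly and is also a p53 target, averaged 16.7 CPM in knockout and 13.4 CPM in control cells under abemaciclib, and 26.6 CPM in knockout and 27.5 CPM in control cells under vehicle. Its drug change was -0.64 in knockout cells (limma adjusted p = 1.63e-08) and -0.99 in control cells (limma adjusted p = 3.49e-13). CIAO2A, of the cytosolic assembly machinery, was lower with abemaciclib by -0.46 and -0.55 (limma adjusted p = 5.22e-07 and 7.99e-09). NUBP1, a cytosolic scaffold protein, was lower by -0.46 in knockout and -0.51 in control cells (limma adjusted p = 5.17e-06 and 5.16e-07), and ISCA2, a mitochondrial assembly protein, by -0.44 and -0.64 (limma adjusted p = 2.73e-07 and 6.99e-11). With the knockout under vehicle HSPA9, the mitochondrial chaperone of the assembly, was lower (-0.23, limma adjusted p = 2.96e-06). ISCA2 was a whole number of reads in 6 of 16 libraries and is uncertain.

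**Figure D5:**
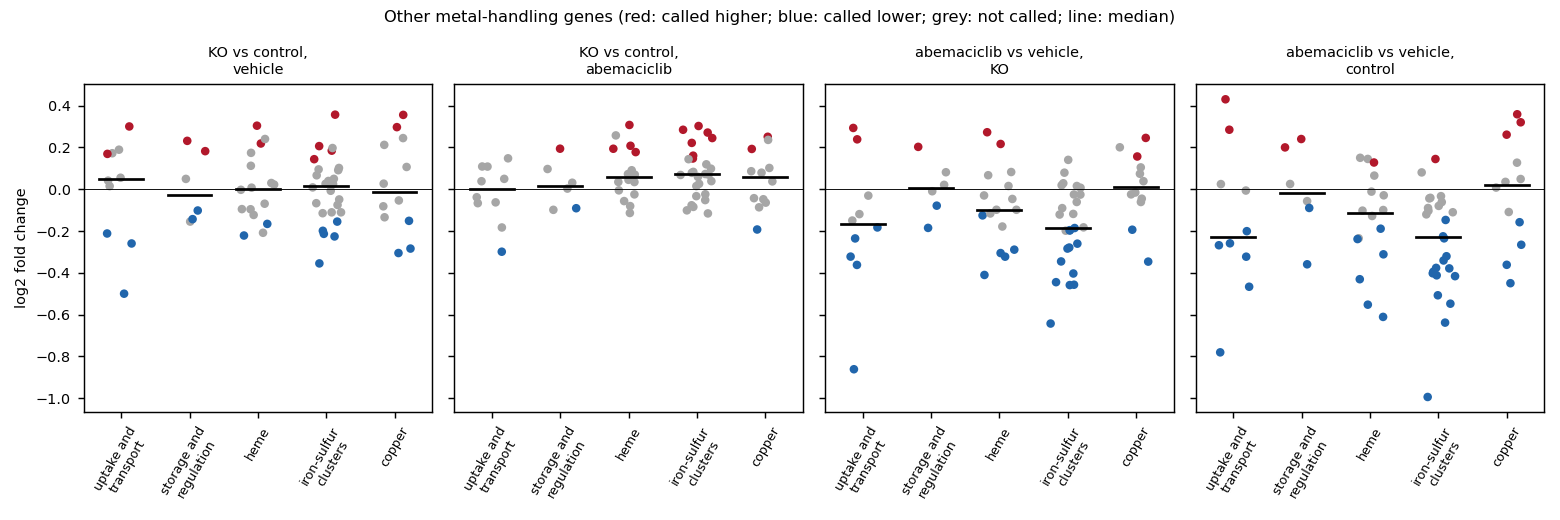
Log2 fold changes (vertical axis) of the tested genes of iron uptake and transport, storage and regulation, heme, iron-sulfur clusters and copper handling in the 4 group comparisons, with 1 point per gene and a line at each median. With abemaciclib 24 of 29 called iron genes are lower in knockout cells and 29 of 35 in control cells, and of all called genes 4444 of 6224 and 5039 of 8220 are lower as deposited, a split that median-of-ratios rescaling brings near equal.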

How the data were processed

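Per the labels' protocols, a commercial service extracted RNA from T47D cells and made libraries by reverse transcription, second-strand synthesis and tagmentation. Reads were aligned with STAR 2.7.11, handled with SAMtools 1.22.1 and MultiQC 1.32, and counted with featureCounts of Subread 2.1.1 on GRCh38 (per the submitters' processing notes). Which annotation, strand setting and multi-mapping rule they used is not given in the sources used here. The authors deposited CPM, which sum to 1000000 in each of 16 libraries.

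Only 70.2 to 71.8% of values above 0 were whole reads within 0.02 reads, so no count test was run. Genes whose values were whole in at most 8 libraries were marked uncertain. The 92 ERCC features were left out. The 16218 genes that reached 1 CPM in 4 or more libraries were fitted as log2(CPM + 1) with limma 3.58.1 in R 4.3.3, with 4 group means, a variance trend, two-sided tests and adjustment by Benjamini-Hochberg across the genes tested. A call is an adjusted p under 0.05. The fit was also run on simulated data, for the vehicle knockout comparison only and with the same setting of spread for all genes. Real genes need not share that setting, so the run does not measure the accuracy of the calls given here.

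Group and replicate came from the titles. Members and lists were chosen with earlier results of these data known. Named genes were the 10 members, FAH, the 5 genes most like STEAP1 and TFRC, copies of members, and up to 3 called genes per list, direction and comparison with at least 5 CPM, of which the report gives the larger and more stable; 1 of them is not reported here. Outside this rule the report also names ACO1, HMOX1, some luminal markers and some tested neighbours of STEAP1. Alternatives were the pseudocount, the filter, the scaling, the trend, a replicate block and each library left out. Correlations of deviations between the 24 pairs of same-numbered libraries were -0.0367 to 0.0603, so the numbers were not treated as pairs.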

Additional observations from a re-analysis of the deposited data

Results flagged for a closer look

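In 3 of the 44 sets of 4 libraries examined for the 10 genes and FAH, 1 library stood apart from its group by Dixon's test at 95%, and chance gives this in about 1 in 20 such sets. SLC40A1 was at 299 CPM in replicate 2 of knockout cells under abemaciclib and at 349 CPM in replicate 1 of control cells under abemaciclib. IREB2 was at 52.6 CPM in replicate 1 of knockout cells under abemaciclib.

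The drug change differed between genotypes, by limma's interaction test, for 2 of the 9 genes so tested, FTH1 by 0.234 (adjusted p = 0.000258) and SLC40A1 by -0.195 (adjusted p = 0.0337). The SLC40A1 call was lost in several settings given above. Among the other iron genes reported it differed for NFU1, which helps place iron-sulfur clusters, by 0.376 (limma adjusted p = 0.00226), FDXR by 0.351 (0.0284), CIAO2B by 0.219 (0.00795), BLVRB by 0.201 (0.00662), PCBP1 by 0.174 (0.0087) and HSPA9 by 0.174 (0.0169). In each of these 6 the drug decrease was smaller in knockout than in control cells. NFU1 averaged 34.2 CPM in knockout and 29.2 CPM in control cells under abemaciclib, and 34.9 CPM in knockout and 38.9 CPM in control cells under vehicle.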

How the results depend on the processing

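The members called numbered 6 and 5 with the knockout under vehicle and abemaciclib and 8 in each drug comparison, and stayed within 1.5 times under every alternative. The limits given above for the calls of STEAP1 and STEAP4 apply to these counts. Interaction calls were less stable: members fell from 2 to 1 without the filter and without a trend, and ranged from 1 to 2 with 1 library left out, and other iron genes fell from 7 to 3 without the filter, 4 after quantile normalization and 1 without a trend. SLC40A1 was the member lost without the filter (limma adjusted p = 0.213) and without a trend (0.167). Interaction calls over all genes fell from 759 higher and 999 lower to 494 and 578 without the filter, and without a trend higher calls fell to 491. Drug calls in knockout cells moved from 1780 higher and 4444 lower to 3173 and 2886 after rescaling and 3578 and 2715 after quantile normalization. Signs turned for FTH1 (-0.02337) and IREB2 (-0.01395) under the vehicle knockout after rescaling, for IREB2 after quantile normalization (-0.001472), for the STEAP4 drug change in knockout cells (0.03752 and 0.0937 after both scalings, -0.08207 to 0.0578 with 1 library left out), for the PCBP2 drug change in knockout cells after rescaling (0.01178), and for the FAH interaction (0.02158 after quantile normalization, -0.1162 to 0.007199 with 1 library left out). None of these was called in that setting. The FAH drug change in knockout cells passed with a pseudocount of 0.1 (adjusted p = 0.0481) or without replicate 3 under abemaciclib (0.0117). The knockout difference of STEAP1 under vehicle was 1.81 with a pseudocount of 0.1. The FDXR interaction lost its call without the filter (limma adjusted p = 0.134), without a trend (0.0773) and without any of several libraries (up to 0.0662). The interactions of BLVRB (adjusted p = 0.0528) and CIAO2B (0.0523) were lost without a trend, and that of BLVRB also after quantile normalization (0.12, adjusted p = 0.155). With the replicate block, members called in the 5 comparisons stayed at 6, 5, 8, 8 and 2, other iron genes under the vehicle knockout went from 22 to 23, and 5 of 16 libraries correlated best with their own number. The cause of these changes was not tested. At this depth 1 CPM is about 10 reads, which limits STEAP4.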

Other observations

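STEAP proteins also reduce copper, and the 12 listed genes of copper handling were all tested. With the knockout 2 were called higher and 1 lower under abemaciclib, and 2 higher and 3 lower under vehicle, or 25 and 41.7%, near the 29.9 and 37.7% of all tested genes. With abemaciclib 2 were called higher and 2 lower in knockout cells, and 3 higher and 4 lower in control cells, or 33.3 and 58.3%, against 38.4 and 50.7% of all tested genes. CCS, the chaperone that loads copper into superoxide dismutase, was higher by 0.19 and 0.30 with the knockout under abemaciclib and vehicle (limma adjusted p = 0.000562 and 7.86e-07), and by 0.16 and 0.26 with abemaciclib in knockout and control cells (limma adjusted p = 0.00322 and 3.23e-06). SLC31A1, the copper importer, was lower with the knockout by -0.19 under abemaciclib and -0.31 under vehicle (limma adjusted p = 0.00189 and 3.5e-06).

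ATOX1, which carries copper to the secretory pathway, was higher with abemaciclib by 0.25 in knockout and 0.36 in control cells (limma adjusted p = 3.42e-06 and 1.18e-09). COX17, which carries copper to cytochrome oxidase assembly, was lower with abemaciclib by -0.35 in knockout and -0.45 in control cells (limma adjusted p = 4.63e-08 and 8.61e-11). SLC31A1 was a whole number of reads in 1 of 16 libraries and COX17 in 2, so both are uncertain.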
